A study of Saccharomyces cerevisiae with 17 samples.

Results

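The 40 genes described here serve the peroxisome of budding yeast and the breakdown of fatty acids inside it. They were listed by pathway role: 25 genes for the biogenesis of the organelle (PEX genes), 13 genes for beta-oxidation and its supporting steps, and the 2 oleate activator genes PIP2 and OAF1. All 40 were found among the 6002 nuclear protein-coding genes of the RefSeq table for assembly R64. The choice followed pathway role and not peak values, but it was made with earlier results of these data known. In this yeast fatty acids are oxidised only in peroxisomes. Peroxins, the products of the PEX genes, build the organelle and carry enzymes into it, and the beta-oxidation enzymes shorten acyl-CoA chains to acetyl-CoA. On glucose the genes of beta-oxidation are known to be held low, and on oleate the Pip2 and Oaf1 proteins activate them through the oleate response element.

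Methylation of histone H3 on lysine 4 was measured by chromatin immunoprecipitation and sequencing in Saccharomyces cerevisiae of the BY4741A strain, collected in exponential growth in YPD, a rich medium with glucose, and fixed with formaldehyde. The series had 17 libraries: 4 genotypes with 2 homemade rabbit antibodies and 2 replicates each, and 1 input of BY4741A. Cells had wild-type Cps25, the Cps25 mutant A142D, no CPS25 (cps25delta) or no SET1 (set1delta). Cps25 is a subunit of COMPASS, and Set1 is its catalytic subunit, the enzyme that makes mono-, di- and trimethylated lysine 4 in this yeast. Trimethylation (H3K4me3) typically lies over the start of transcribed genes and dimethylation (H3K4me2) extends further into them. Peak lists of 4 libraries were used, all replicate 1, for each antibody in Cps25 wild-type cells and in set1 deletion cells, and the other 13 libraries were left out. Since a group had only 1 list, no spread between replicates could be had, every difference describes these libraries, and no test between groups was run. Transcript levels were not measured.

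The lists held 4393 peaks for H3K4me2 and 4087 for H3K4me3 in Cps25 wild-type cells, and 927 and 743 in set1 deletion cells. Read depth is unknown, so a gene without a listed peak is described as having no listed peak, not as unmethylated. No wild-type peak overlapped a set1 deletion peak of the same antibody, 0 of 4393 and 0 of 4087, since such peaks had been taken out of the wild-type lists. The running numbers of the peak names lacked 354 of 4747 and 258 of 4345 entries. The targeted gene SET1 (YHR119W, chromosome VIII) carried a peak of each mark at its 5′ end in Cps25 wild-type cells and none in set1 deletion cells. The deletion removes the gene's product, and a peak list does not show whether the gene itself was present.

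A gene was counted as marked when a peak covered at least 1 bp of the first 500 bp of its open reading frame (ORF), or of the whole ORF where that is shorter. These bases are coding sequence, and untranslated regions were not annotated in the table used. Each share is given with its exact Clopper-Pearson 95% interval over genes, which covers counting error only.

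The PEX biogenesis genes carried H3K4me2 almost without exception, and the beta-oxidation genes mostly carried neither mark. An H3K4me2 peak lay over the 5′ end of 24 of 25 PEX genes (96.0%, 79.6 to 99.9%) and of 3 of 13 beta-oxidation genes (23.1%, 5.04 to 53.8%), beside 75.1% of all 6002 genes. H3K4me3 was listed at 18 of 25 PEX genes (72.0%, 50.6 to 87.9%) and at 2 of 13 beta-oxidation genes (15.4%, 1.92 to 45.4%), beside 68.7% of all genes. Both activator genes carried both marks. Over all 40 genes the counts were 29 for H3K4me2 (72.5%) and 22 for H3K4me3 (55.0%), so the total for H3K4me2 lay close to the genome-wide share although its parts lay far from it. Among the 5257 genes that have a standard name, as all members do, the shares were 80.1% and 74.2%. A further comparison kept genes without a set1 deletion peak of the same antibody from 500 bp before to 1000 bp after the start codon. Of these, 22 of 23 PEX genes carried H3K4me2 and 16 of 23 carried H3K4me3, beside 80.9% and 72.8% of all such genes. The beta-oxidation counts stayed at 3 and 2 of 13.

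No member carried H3K4me3 alone, which is rare over all genes as well (2.52%). H3K4me2 alone was carried by 7 members (17.5%, 7.34 to 32.8%), beside 8.85% of all genes. Of these 7, 6 were PEX genes. Neither mark was listed at 11 members (27.5%, 14.6 to 43.9%), beside 22.4% of all genes, and 10 of the 11 were beta-oxidation genes (76.9% of the 13, with a lower bound of 46.2%). In set1 deletion cells 0 of 40 members had a peak over the first 500 bp with either antibody, where the share over all genes was 4.75% with the H3K4me2 antibody and 3.40% with the H3K4me3 antibody. A count of 0 of 40 allows a share of up to 8.81%, so the members cannot be told from the other genes there.

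**Figure D1:**
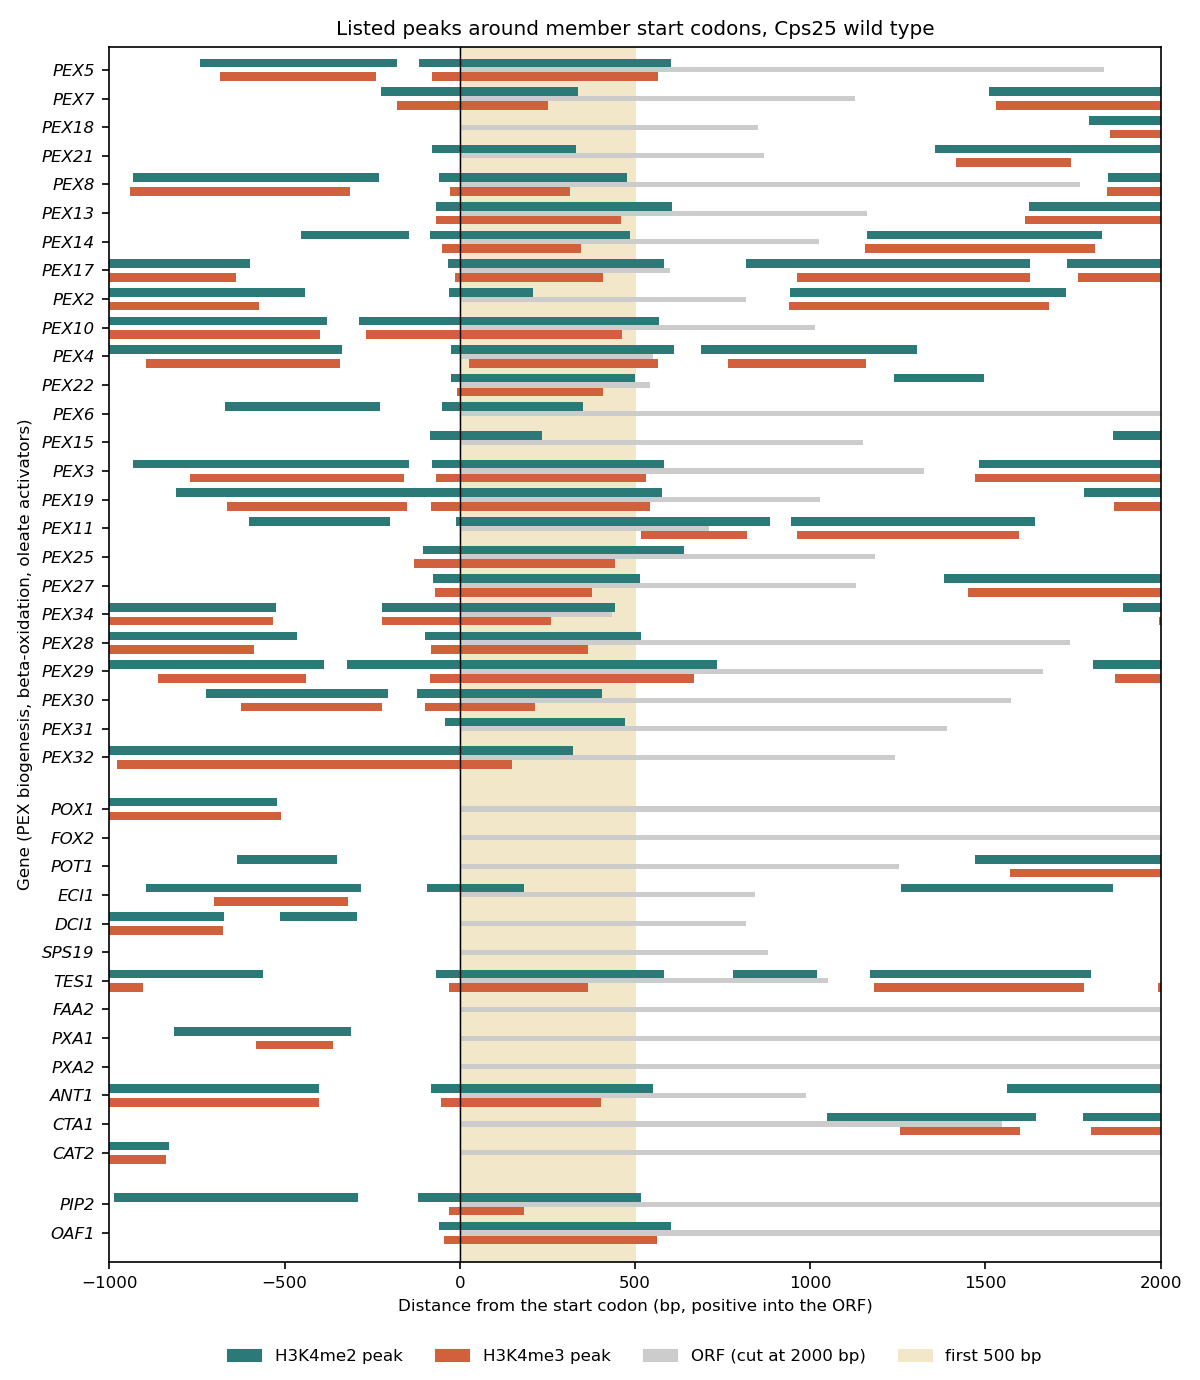
Listed H3K4me2 (green) and H3K4me3 (orange) peaks of Cps25 wild-type cells around the start codons of the 40 genes. The horizontal axis gives the distance from the start codon in bp, grey bars show the ORF as far as the axis runs, and the shaded band marks the first 500 bp. The band is crossed by an H3K4me2 peak in 24 of 25 PEX genes, in 3 of 13 beta-oxidation genes and in both activator genes.

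The import receptors and the docking complex bring matrix proteins to the peroxisomal membrane, and 7 of these 8 genes carried H3K4me2 and 6 carried H3K4me3. PEX5 (YDR244W, chromosome IV, 950563 to 952401) encodes the receptor for the C-terminal targeting signal. Its H3K4me2 peak ran from -115 to 604 bp relative to the start codon and its H3K4me3 peak from -78 to 567 bp. The authors' score per peak has no stated scale, so it served only to rank peaks within a list, as the percentage of that list's peaks with the same or a lower score. On that measure the PEX5 peaks stood at percentile 87.7 for H3K4me2 and 65.9 for H3K4me3. PEX7 (YDR142C, chromosome IV, 740473 to 741600), the receptor for the N-terminal signal, had weaker peaks at percentiles 26.2 and 16.0, which reached 337 and 253 bp into the ORF.

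Pex18 and Pex21 are related and partly interchangeable co-receptors of Pex7, and their genes differed in H3K4me2. PEX18 (YHR160C, chromosome VIII, 419221 to 420072) was the only PEX gene without a listed 5′ peak of either mark. PEX21 (YGR239C, chromosome VII, 969187 to 970053) had an H3K4me2 peak from -78 to 332 bp at percentile 14.5 and no H3K4me3 peak. The nearest H3K4me2 peaks to PEX18 lay 1422 bp upstream of its start codon, over the start of YAP1801, and 1795 bp downstream, over the starts of KEL1 and TDA11. The running peak numbers on either side of PEX18 were consecutive in both lists, so no numbered peak had been taken out between them.

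The docking genes carried both marks. PEX13 (YLR191W, chromosome XII, 537272 to 538432) had the highest scores among them, at percentile 68.2 for H3K4me2 and 67.7 for H3K4me3. PEX14 (YGL153W, chromosome VII, 216273 to 217298) stood at 41.2 and 31.2, and PEX17 (YNL214W, chromosome XIV, 245617 to 246216) at 38.6 and 25.5. PEX8 (YGR077C, chromosome VII, 637744 to 639513), whose product links the docking and ubiquitin ligase complexes from inside the organelle, stood at 19.3 and 7.46. The H3K4me3 peak of PEX8 was the lowest of any PEX gene with a 5′ peak of that mark.

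Receptors are ubiquitylated and pulled back out of the membrane after each round of import. All 6 genes listed for this step carried H3K4me2, and only PEX10, PEX4 and PEX22 also carried H3K4me3. With so few genes the intervals, 54.1 to 100% and 11.8 to 88.2%, held the shares over all genes, 75.1% and 68.7%. PEX10 (YDR265W, chromosome IV, 998864 to 999877), a RING ubiquitin ligase, had peaks at percentiles 67.6 and 63.8. PEX4 (YGR133W, chromosome VII, 756896 to 757447), the ubiquitin-conjugating enzyme, stood at 54.0 and 25.6. Its H3K4me3 peak was the only one among the members to begin inside the ORF, at 27 bp. PEX22 (YAL055W, chromosome I, 42177 to 42719), the membrane anchor of Pex4, stood at 35.0 and 23.2.

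The other members of this step carried H3K4me2 alone. PEX2 (YJL210W, chromosome X, 36919 to 37734), a partner RING ligase of Pex10, had the narrowest and lowest H3K4me2 peak of all members, 240 bp wide at percentile 1.96. PEX6 (YNL329C, chromosome XIV, 19541 to 22633), a subunit of the AAA ATPase that extracts receptors, had a peak from -51 to 353 bp at percentile 13.7. PEX15 (YOL044W, chromosome XV, 247150 to 248301), which anchors Pex6 at the membrane, had a peak from -84 to 234 bp at percentile 14.3. All 3 scores were lower than that of any PEX gene with both marks.

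PEX3 and PEX19 insert membrane proteins into the peroxisome, and both carried high-scoring peaks of both marks. PEX3 (YDR329C, chromosome IV, 1126270 to 1127595) stood at percentiles 87.2 and 69.3. PEX19 (YDL065C, chromosome IV, 336249 to 337277) stood at 82.4 and 66.8. The PEX19 H3K4me2 peak was 1388 bp wide and began at -810 bp, and it also held the start codon of the divergent neighbour UBC9. Its H3K4me3 peak was 626 bp wide and held the PEX19 start codon alone.

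The genes of division and proliferation spanned most of the range of scores. PEX25 (YPL112C, chromosome XVI, 337436 to 338620) had the highest peaks of all members for both marks, at percentiles 92.1 and 77.0, with the H3K4me2 peak from -104 to 640 bp and the H3K4me3 peak from -130 to 443 bp. Its relative PEX27 (YOR193W, chromosome XV, 710446 to 711576) stood at 44.5 and 27.8. PEX34 (YCL056C, chromosome III, 26925 to 27359) stood at 20.1 and 21.7. PEX11 (YOL147C, chromosome XV, 47933 to 48643), whose product elongates the membrane before fission, had an H3K4me2 peak from -10 to 886 bp at percentile 22.7, which ran past the end of its ORF. No H3K4me3 peak lay over the first 500 bp of PEX11, and 1 began at 517 bp, near the end of the ORF, at percentile 3.62.

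The products of PEX28 to PEX32 set the size and number of peroxisomes, and all 5 of these genes carried H3K4me2, beside 75.1% of all genes. PEX29 (YDR479C, chromosome IV, 1415210 to 1416874) stood highest, at percentiles 86.3 and 65.5, with an H3K4me2 peak 1057 bp wide. PEX28 (YHR150W, chromosome VIII, 397251 to 398990) stood at 55.9 and 53.0. The related genes PEX30, PEX31 and PEX32 differed from each other. PEX30 (YLR324W, chromosome XII, 779215 to 780786) carried both marks at 32.0 and 23.7. PEX31 (YGR004W, chromosome VII, 502938 to 504326) carried H3K4me2 alone at 14.9. PEX32 (YBR168W, chromosome II, 572371 to 573612) lay under wide peaks at 43.0 and 46.9 that began at -1013 and -979 bp and also held the start of the divergent gene POP7, and the middle of each lay closer to the POP7 start.

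**Figure D2:**
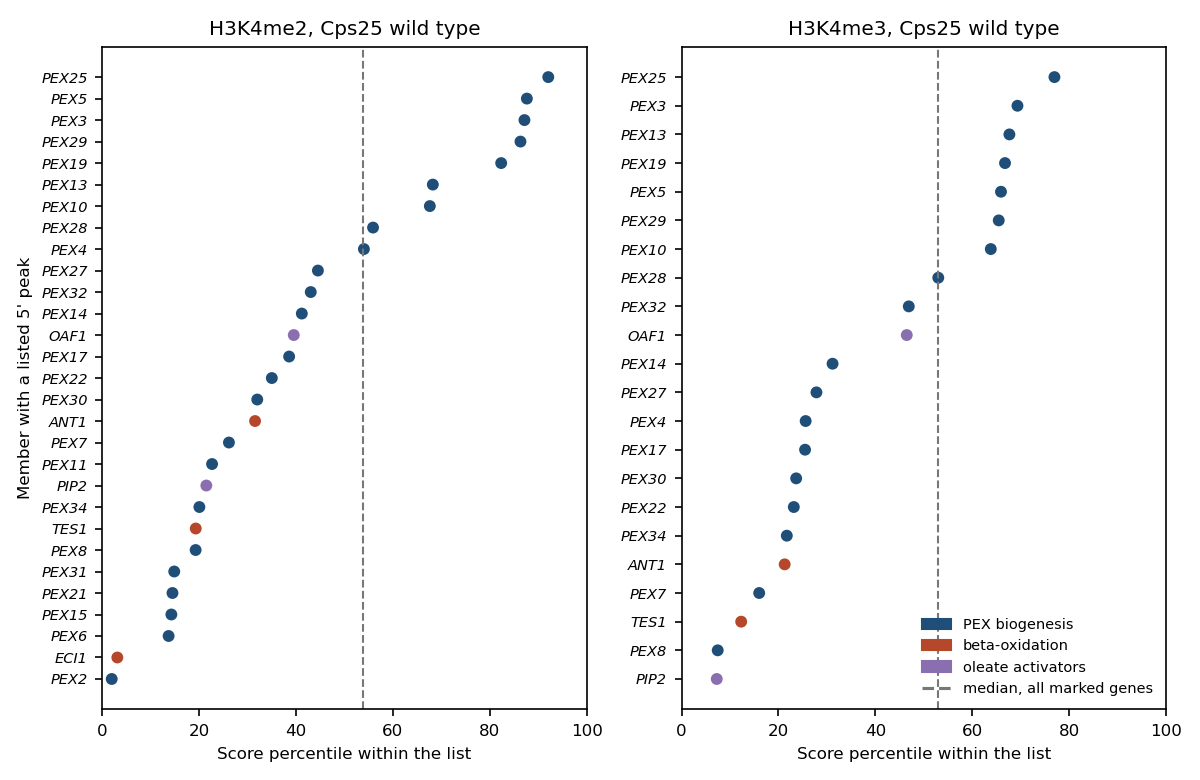
Score percentile of the 5′ peak within its own list for each member that had one, for H3K4me2 (left, 29 genes) and H3K4me3 (right, 22 genes) in Cps25 wild-type cells. The dashed line is the median over all genes with a peak, 53.9 for H3K4me2 and 52.9 for H3K4me3. PEX25 was the highest member in both lists, and 20 of 29 and 14 of 22 members lay under percentile 50.

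The core enzymes of the beta-oxidation spiral carried no listed peak of either mark at the 5′ end. POX1 (YGL205W, chromosome VII, 108158 to 110404) encodes acyl-CoA oxidase, FOX2 (YKR009C, chromosome XI, 454352 to 457054) the multifunctional hydratase and dehydrogenase, and POT1 (YIL160C, chromosome IX, 40191 to 41444) the thiolase. None of these 3 had a peak anywhere in its ORF. FOX2 lay in the longest stretch free of H3K4me2 peaks around any of the 11 unmarked members, 7700 bp, from 3522 bp upstream of its start codon to 4179 bp downstream. POX1 lay in a stretch of 6395 bp. POT1 lay in the shortest such stretch, 1821 bp, with the H3K4me2 peak over the start of its divergent neighbour BNR1 ending 351 bp upstream.

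The auxiliary enzymes handle chains with double bonds and release free fatty acids. Of these 4 genes, 2 carried H3K4me2 and 1 carried H3K4me3, beside 75.1% and 68.7% of all genes. ECI1 (YLR284C, chromosome XII, 706198 to 707040), the enoyl-CoA isomerase, had an H3K4me2 peak from -94 to 184 bp, 279 bp wide and at percentile 3.12. Its relative DCI1 (YOR180C, chromosome XV, 674352 to 675167) had no 5′ peak, and the nearest H3K4me2 peak ended 294 bp upstream. SPS19 (YNL202W, chromosome XIV, 259578 to 260456), a dienoyl-CoA reductase, had none within 1364 bp upstream or 3188 bp downstream of its start codon. TES1 (YJR019C, chromosome X, 467232 to 468281), an acyl-CoA thioesterase, carried both marks, with H3K4me2 from -69 to 583 bp at percentile 19.3 and H3K4me3 from -30 to 365 bp at percentile 12.3.

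Fatty acids enter the organelle through an ABC transporter or as free acids that are activated inside. Of the 4 genes for entry and cofactor transport only ANT1 carried a mark, beside 75.1% of all genes with H3K4me2 and 68.7% with H3K4me3. ANT1 (YPR128C, chromosome XVI, 791218 to 792204) encodes the peroxisomal adenine nucleotide carrier. Its peaks stood at percentile 31.6 for H3K4me2 and 21.3 for H3K4me3, the highest of the beta-oxidation group in both lists, and ended 550 and 403 bp into the ORF. FAA2 (YER015W, chromosome V, 184541 to 186775), the medium-chain acyl-CoA synthetase, had no peak between 1530 bp upstream and 2924 bp downstream. The ABC transporter genes PXA1 (YPL147W, chromosome XVI, 273255 to 275867) and PXA2 (YKL188C, chromosome XI, 86225 to 88786) likewise had no peak, in H3K4me2-free stretches of 3955 and 7593 bp.

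Catalase A, which removes the peroxide made by acyl-CoA oxidase, and carnitine acetyltransferase, which readies acetyl groups for export, are encoded by CTA1 and CAT2. Neither gene had a 5′ peak. CTA1 (YDR256C, chromosome IV, 968133 to 969680) had peaks that began late in its ORF, at 1049 bp for H3K4me2 (percentile 25.6) and 1257 bp for H3K4me3 (percentile 14.5). CAT2 (YML042W, chromosome XIII, 192788 to 194800) had none within 830 bp upstream or 2408 bp downstream. Over whole ORFs the counts were therefore 4 of 13 beta-oxidation genes for H3K4me2 and 3 of 13 for H3K4me3, with CTA1 added to each, and 24 and 19 of 25 PEX genes, with PEX11 added for H3K4me3. The genome-wide shares over whole ORFs were 76.0% and 69.4%. In a window that began 500 bp before the start codon and ended 1000 bp after it, 6 of 13 beta-oxidation genes had an H3K4me2 peak and 4 had an H3K4me3 peak, beside 81.3% and 75.4% of all genes. The wider window added POT1, DCI1 and PXA1 for H3K4me2 and ECI1 and PXA1 for H3K4me3, each through a peak upstream of the start codon. The PEX counts in it were 24 and 20 of 25.

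The activator genes were marked although most of the beta-oxidation genes were not. PIP2 (YOR363C, chromosome XV, 1020222 to 1023212) had an H3K4me2 peak 638 bp wide at percentile 21.5 and an H3K4me3 peak of 216 bp at percentile 7.27, the narrowest and lowest H3K4me3 peak of any member. OAF1 (YAL051W, chromosome I, 48564 to 51707) had peaks of 662 and 609 bp at percentiles 39.5 and 46.5. In OAF1 the peaks of both marks thus had nearly the same extent, and in PIP2 they did not.

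Most of the marked members ranked in the lower part of their list. The median H3K4me2 percentile was 39.9 over the 24 marked PEX genes (quartiles 19.9 to 67.8) and 35.0 over all 29 marked members, and it was 53.9 over all marked genes (quartiles 29.9 to 77.2). For H3K4me3 the medians were 39.0 over 18 PEX genes, 29.5 over 22 members and 52.9 over all marked genes. With only the upper 50% of each list by score, 9 of 25 PEX genes kept H3K4me2 and 8 kept H3K4me3, where the shares over all genes were 40.7% and 36.6%. No beta-oxidation gene kept either mark. In the upper 50% the counts of PEX genes therefore lay near the genome-wide shares, unlike the count over the whole H3K4me2 list.

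The members with H3K4me2 alone had low H3K4me2 scores. Their percentiles ran from 1.96 (PEX2) to 22.7 (PEX11) with a median of 14.3 over 7 genes. The 22 members with both marks ran from 19.3 to 92.1 with a median of 42.1. Over all genes the medians were 9.06 for H3K4me2 alone and 58.6 for both marks, so the members followed the order seen over all genes. What part the score rank has in the lack of an H3K4me3 peak was not tested.

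**Figure D3:**
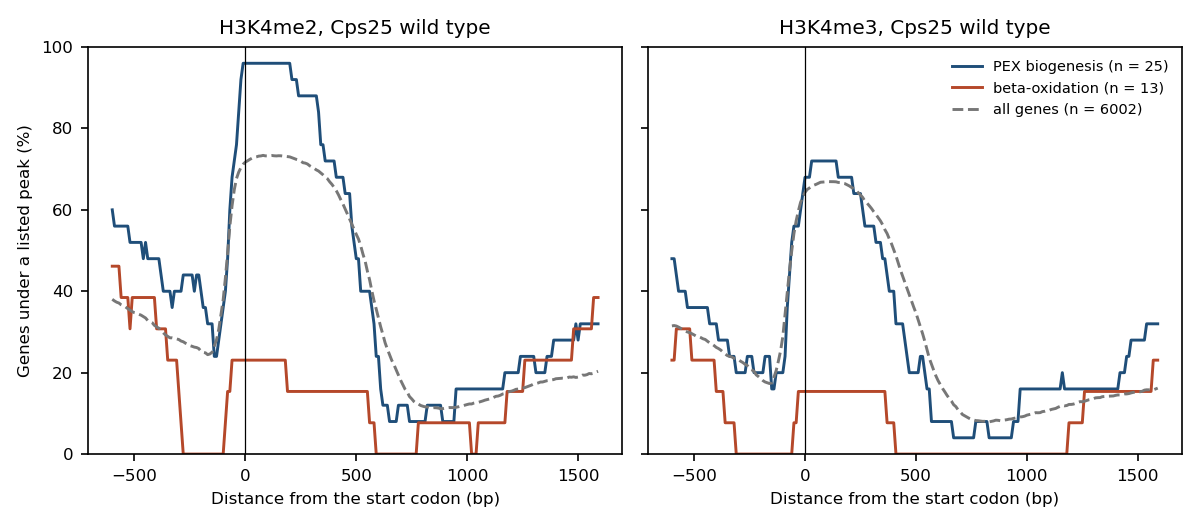
Percentage of genes under a listed peak at each distance from the start codon, for PEX biogenesis genes (blue, 25 genes), beta-oxidation genes (red, 13 genes) and all genes (grey dashes, 6002 genes), with H3K4me2 left and H3K4me3 right. The H3K4me2 line of the PEX genes reaches 96.0% at the start codon and falls to 24.0% at 600 bp, and the red line stays at or below 23.1% over the first 500 bp.

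Aligned on the start codon, the PEX genes were covered by H3K4me2 in 96.0% of cases at 100 bp, 88.0% at 300 bp, 48.0% at 500 bp and 24.0% at 600 bp. Over all genes the corresponding shares were 73.2%, 70.5%, 54.0% and 33.4%. The PEX share lay above that of all genes at 100 and 300 bp and below it at 500 and 600 bp, and these differences were not tested. For H3K4me3 the PEX shares were 72.0% at 100 bp, 56.0% at 300 bp and 20% at 500 bp, and those of all genes were 67.0%, 60.3% and 34.7%. At 600 bp no beta-oxidation gene lay under an H3K4me2 peak, and at 500 bp none lay under an H3K4me3 peak.

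H3K4me2 reached further into the ORF than H3K4me3 in all 22 members that carried both marks. The difference between the downstream ends had a median of 143.5 bp (quartiles 69.75 to 174 bp) and ran from 33 bp in PEX19 to 334 bp in PIP2. Over the 3975 genes with both marks the median was 82 bp (quartiles 42.5 to 137 bp), and H3K4me2 ended further downstream in 3757 of them. Among the 18 PEX genes with both marks the median was 138 bp. TES1 and ANT1 had differences of 218 and 147 bp. The median H3K4me2 end lay at 516 bp in members and at 572 bp over all genes, and the median H3K4me3 end at 405.5 and 493 bp. Restricted to the 8 members whose peaks of both marks ranked in the upper 50%, the median difference was 84.5 bp, and over the 1918 genes under the same restriction it was 58 bp.

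**Figure D4:**
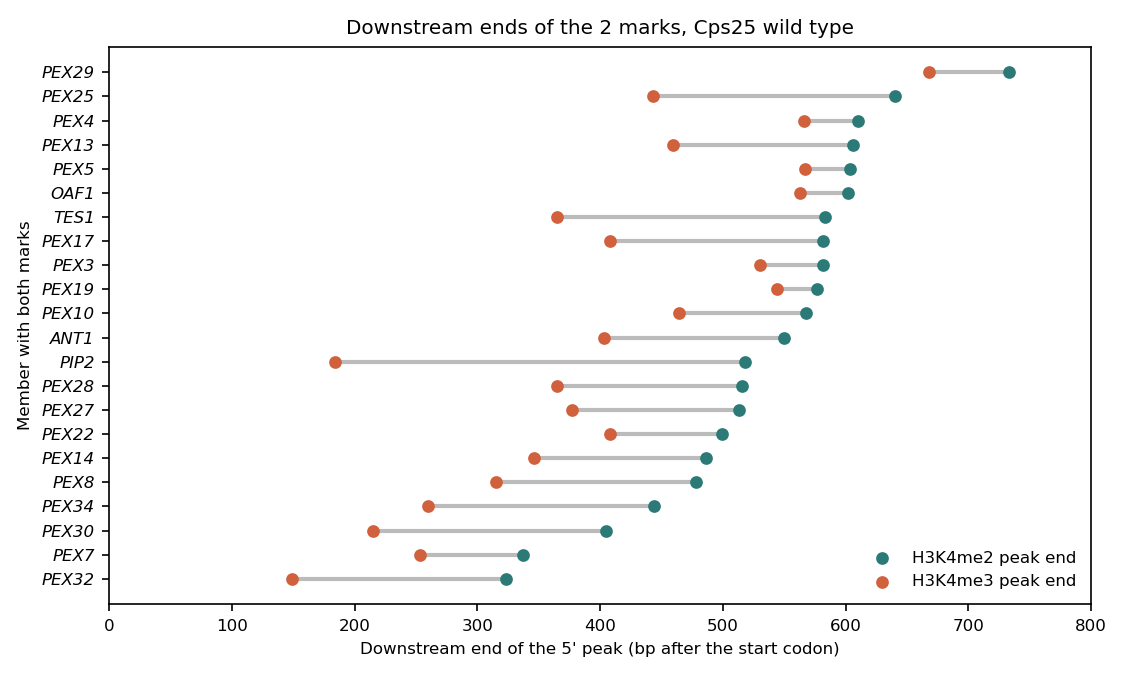
Downstream end of the 5′ peak, in bp after the start codon, for H3K4me2 (green) and H3K4me3 (orange) in the 22 members with both marks, ordered by the H3K4me2 end. The green point lies to the right in every gene, by 33 bp in PEX19 and by 334 bp in PIP2.

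The upstream edges lay closer together. The H3K4me3 peak began downstream of the H3K4me2 peak in 20 of 22 members, by a median of 26.5 bp, and over all genes by a median of 17 bp. At PEX34 the edges coincided, and at PEX25 the H3K4me3 peak began further upstream. The widest gap was at PEX19, 729 bp, where the H3K4me2 peak continued over UBC9. As a share of the H3K4me2 width, the H3K4me3 width had a median of 74.5% in members and 85.4% over all genes.

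The neighbours of the unmarked beta-oxidation genes were marked at about the genome-wide shares. Of the 20 genes that flank the 10 unmarked beta-oxidation genes, 16 carried H3K4me2, 15 carried H3K4me3 and 4 carried neither, beside 75.1%, 68.7% and 22.4% of all genes. In 6 of the 10 cases the neighbours on both sides carried H3K4me2, and in none did both lack it. POX1 lies divergent to CHC1, the gene of the clathrin heavy chain, whose peak ended 523 bp upstream of the POX1 start codon. PXA1 lies divergent to PPT2, whose H3K4me2 peak ended 310 bp upstream. The stretches free of H3K4me2 peaks around the 10 genes had a median length of 4204 bp (1821 to 7700 bp). These neighbours were chosen by position next to the members, after the peaks had been seen.

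The running peak numbers were also read on both sides of each unmarked gene. None was missing around any of the 11 members without H3K4me2. In the H3K4me3 list none was missing around 6 of 7 PEX genes and 10 of 11 beta-oxidation genes, and the exceptions were PEX21 and POX1. Set1 deletion peaks lay within the stretches of 4 of these genes, all of them over 1000 bp from the start codon. For PEX21 the closest lay 2329 bp away with the H3K4me3 antibody, and for PEX6 1641 bp away with the same antibody. For POX1 the distances were 2349 bp with the H3K4me2 antibody and 2358 bp with the H3K4me3 antibody, and for FOX2 they were 1472 and 1462 bp.

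Within 500 bp upstream and 1000 bp downstream of the start codon, 2 of 40 members had a set1 deletion peak, with both antibodies, beside 13.2% and 10.2% of all genes. These were PEX25 and its relative PEX27. In each the peaks covered an initiator methionine tRNA gene upstream, IMT2 at PEX25 and IMT1 at PEX27. At PEX25 the set1 deletion peaks ran from -456 to -179 bp with the H3K4me2 antibody and from -481 to -188 bp with the H3K4me3 antibody. At PEX27 they ran from -415 to -118 bp and from -363 to -124 bp. The wild-type peaks of both genes began downstream of these edges. Wild-type peaks overlapping set1 deletion peaks of the same antibody had been taken out, so a listed peak could not overlap them.

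The glyoxylate cycle and acetyl transfer genes also carried few 5′ peaks. These genes turn acetyl-CoA from fatty acids into organic acids and sugars. Of 13, 4 carried H3K4me2 and 1 carried H3K4me3, beside 75.1% and 68.7% of all genes. Over whole ORFs the counts were 7 and 4 of 13, beside 4 and 3 of 13 beta-oxidation genes and 76.0% and 69.4% of all genes. For H3K4me2 over whole ORFs the interval of 25.1 to 80.8% held the share over all genes. ACO1, the aconitase also used by the citric acid cycle, carried both marks at percentiles 37.2 and 43.9, and FBP1, the fructose bisphosphatase of gluconeogenesis, carried H3K4me2 at 31.5. Of the 9 genes with neither mark, the first in alphabetical order were ACS1, CRC1, IDP2 and MDH2, and set1 deletion peaks lay near MDH2.

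Of the 22 genes of other peroxisomal proteins, 14 carried H3K4me2 (63.6%, 40.7 to 82.8%) and 12 carried H3K4me3 (54.5%, 32.2 to 75.6%). The shares over all genes, 75.1% and 68.7%, lay within these intervals. AAT2, an aspartate aminotransferase, stood at percentiles 95.5 and 95.3, above every member, and PXP2 stood at 67.8 and 56.3. Neither mark was listed at 7 genes of this list, FAA4, IDP3, LPX1 and PCD1 first by alphabet, and set1 deletion peaks lay near FAA4.

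The regulators were marked at about the share of all genes. Of 12 other regulators of the glucose and fatty acid response, 9 carried H3K4me2 and 10 carried H3K4me3, beside 75.1% and 68.7% of all genes. SPT23, an activator of the fatty acid desaturase gene, stood at percentiles 99.2 and 98.2, REG1 at 89.3 for H3K4me2 and RTG1 at 96.1 for H3K4me3. The genes with neither mark were ADR1 and CAT8, which encode activators known to work when glucose is exhausted, and a set1 deletion peak of the H3K4me3 antibody lay near CAT8. Of 10 genes of division and inheritance, 9 carried H3K4me2 and 8 carried H3K4me3. MDV1 (94.3) and MYO2 (90.0) led for H3K4me2, VPS1 (73.4) and MYO2 (72.6) led for H3K4me3, and ATG36, the receptor for degradation of peroxisomes, had neither.

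**Figure D5:**
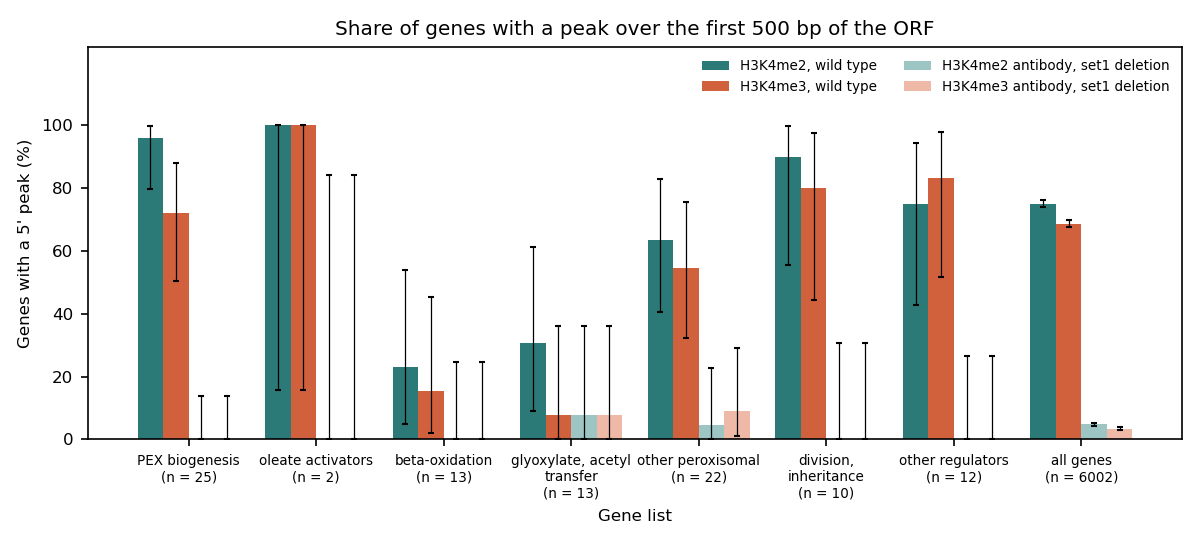
Percentage of genes in each list with a peak over the first 500 bp of the ORF, for both antibodies in Cps25 wild-type cells (dark) and set1 deletion cells (pale). Bars show the share and error bars its exact 95% interval over genes, which covers counting error only. The H3K4me2 bars stand at 96.0% for PEX biogenesis genes, 23.1% for beta-oxidation genes and 75.1% for all genes.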

How the data were processed

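Peak lists of 4 replicate 1 libraries were used, with groups taken from the sample titles. The submitters' processing notes name Bowtie 1.1.2, MACS2 2.1.1 and build sacCer3 without settings, and the sources used here do not say whether the input was the control. The authors deposited for each peak its position and a score of unstated scale, called per library as far as the labels show. By their file names the wild-type lists had lost their set1 deletion peaks, and 0 overlaps with such peaks were found.

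Genes, names and strands came from the RefSeq table of R64, the same genome as sacCer3, in 1-based coordinates. No sequence was used. Overlaps, percentiles and edges were computed with Python 3.11.15, numpy 2.4.6, pandas 2.3.3 and scipy 1.17.1, figures with matplotlib 3.10.9, and the overlap code was tested on simulated data and against bedtools 2.31.1, with 0 genes differing over 4 lists. The gene ontology tables were not used, since no term in them names peroxisomes, fatty acids or lipids.

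The members and the 4 further gene lists were chosen with earlier results of these data known. Members are all named. In further lists, counts are given with up to 2 genes of the highest score percentile per mark and up to 4 with neither mark by alphabet, and neighbouring genes were named after their values were seen. Values of some genes in these lists are not reported here. Alternatives were the upper 50% of each list by score, 50% overlap, other windows (250 bp, 250 bp upstream to 500 bp, whole ORF), edges moved by 100 bp, peaks within 200 bp merged, genes away from set1 deletion peaks, peaks nearest to the gene's own start and, added after seeing the data, the deposited nearest gene and a window begun 500 bp before and ended 1000 bp after the start codon. With 1 list per group no test was run.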

Additional observations from a re-analysis of the deposited data

How the results depend on the processing

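No paired analysis was possible because each group had 1 list. The count of PEX genes with H3K4me2 stayed within 1.5 times its value under 11 of 12 alternatives, and that with H3K4me3 under 10 of 11. With the upper 50% of each list by score the PEX counts were 9 for H3K4me2 and 8 for H3K4me3, and the beta-oxidation counts were 0 and 0; the alternative itself drops the lower-scoring peaks. With the window begun 250 bp before the start codon and ended at 500 bp, 2 of 40 members counted in set1 deletion cells with each antibody. The shares over all genes were 7.75% with the H3K4me2 antibody and 5.38% with the H3K4me3 antibody. The 2 members were PEX25 and PEX27, whose upstream tRNA genes lay under these peaks. With the window from 500 bp before to 1000 bp after the start codon, chosen after seeing the data, the same 2 members counted in set1 deletion cells. The shares over all genes there were 13.2% and 10.2%. In Cps25 wild-type cells 6 of 13 beta-oxidation genes counted for H3K4me2 and 4 for H3K4me3, beside 81.3% and 75.4% of all genes. By the deposited nearest gene, also chosen afterwards, 8 of 13 beta-oxidation genes and 19 of 25 PEX genes would count for H3K4me2. The share over all genes by that assignment was 55.4%, and the beta-oxidation genes did not fall below it. Under the remaining alternatives the beta-oxidation counts were 3 to 4 and 2 to 3 of 13. Read depth and peak caller settings are unknown, 1 library stands for each group, and a weak peak below the caller's threshold cannot be told from no peak.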

Other observations

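The deposited H3K4me2 table names a nearest gene for each peak, and for the members this name points elsewhere. Of the 29 members with an H3K4me2 5′ peak, 0 were the gene named for that peak. Over all genes this was so for 198 of 4506 (4.39%). A start codon lay under 3993 of 4393 peaks, but among 4018 peaks whose named gene was found in the table only 4 held that gene's start codon. POX1 is named for the peak over the CHC1 start and CAT2 for the peak over the RRN11 start, and 7 of the 8 beta-oxidation genes named in this column had no 5′ peak of their own. The same table gives each peak a cluster number without saying what it stands for: the 5′ peaks of all 29 marked members were in cluster 2, beside 80.8% of the marked genes overall.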
